A study of Mus musculus with 23 samples.

Results

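The forkhead genes outside the Foxa subfamily were followed in the mouse line F9. These are embryonal carcinoma cells, which differentiate into extraembryonic endoderm when retinoic acid (RA) is added. Members were taken by gene symbol, as every symbol made of Fox, a subfamily letter from b to s and a number, with opposite-strand transcripts left out. The rule found 40 genes among the 36814 in the count tables, of which 31841 carried a symbol. Foxl1, which the RefSeq gene order used below places beside Foxc2, was not among the 40, so the family is not covered in full. Why it was not matched was not tested. The series holds 23 samples, and 14 of them are mRNA libraries. These were 4 libraries of cells labelled 0 h, 2 each after 6, 12, 24 and 48 h in all-trans RA at 1e-07 M, and 1 each after 24 and 48 h in the solvent dimethyl sulfoxide (DMSO) at 0.001%. All groups are of the same line, with no genetic change named. The labels do not say whether replicates were separate cultures. A p-value therefore reflects the variation among these libraries, which may be technical.

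Forkhead (Fox) proteins are transcription factors that share a winged-helix DNA-binding domain and are sorted by letter into subfamilies. Several act at set points of development: Foxd3 in pluripotent cells and neural crest, Foxh1 as the partner of Smad proteins in Nodal signalling, Foxf1, Foxf2, Foxc1 and Foxc2 in mesenchyme and mesoderm. Others, such as the FoxO, FoxK, FoxM and FoxP members, are widely expressed. FoxO proteins are held out of the nucleus by insulin and AKT signalling, which transcript levels do not show.

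Levels are CPM, counts relative to the size of each library after scaling by the factors of the fit. They were not divided by transcript length, so they are compared between libraries and not between genes. Changes are log2 fold changes with a standard error (SE) from edgeR's quasi-likelihood model of all 14 libraries, and a gene was called at a Benjamini-Hochberg adjusted p under 0.05 over 16155 tested genes. Each library held 7.079 to 10.95 M (mega) gene counts. The libraries were split into 2 sets by the share of reads that the counting placed in no feature, out of these reads and the gene counts. The cut lay at the middle of the range of that share. It was 57.31 to 59.43% in the libraries of set 1 and 52.51 to 53.77% in those of set 2. The sets come from these shares and not from a label, and what separates them was not tested. Set 1 held replicate 1 of 0 h and of each RA time and both DMSO libraries, and set 2 held the others and was deeper. Fits with a term for the set, and with the replicate number as a block (replicates 1 and 2 of 0 h and of the RA times, without DMSO), are given with the counts and with the members whose calls they change. Libraries named below as left out were left out 1 at a time.

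Of the 40 members 30 were tested, 8 had counts but lay below the filter on low counts, and 2 (Foxe3 and Foxi1) had 0 counts in every library. Against 0 h, 9 members were called higher at 24 or 48 h and were not brief (Foxc2, Foxd1, Foxd2, Foxf1, Foxf2, Foxj2, Foxl2, Foxp4 and Foxq1). Foxf2 and Foxq1 were called at both times. The others were called at 48 h alone, the last time sampled, so whether they stayed up is not known. Foxn4 and Foxp1 were brief, being called higher early with a 48 h mean under 50% of their highest RA mean. Foxo3 was called higher at 12 h alone. The 6 members called lower at 1 or more times and higher at none were Foxd3, Foxh1, Foxi3, Foxj1, Foxo1 and Foxr2, and 12 tested members were called at no time. With the set term 5 of the 40 moved to another class: Foxc1, Foxj3, Foxo3 and Foxo4 joined the 9 (13 in all) and Foxo6 those called lower (7 in all). Of the tested members 17 reached the filter's limit of 1.05 CPM in all 14 libraries, while 6 (Foxc1, Foxd1, Foxd2, Foxf1, Foxf2 and Foxl2) reached it only in libraries of 24 or 48 h RA. Those 6 were tested only because they were high there. Their own p-values and count ratios below describe the rise and give no independent support for it. The counts of called members below likewise describe the family and support nothing.

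**Figure D1:**
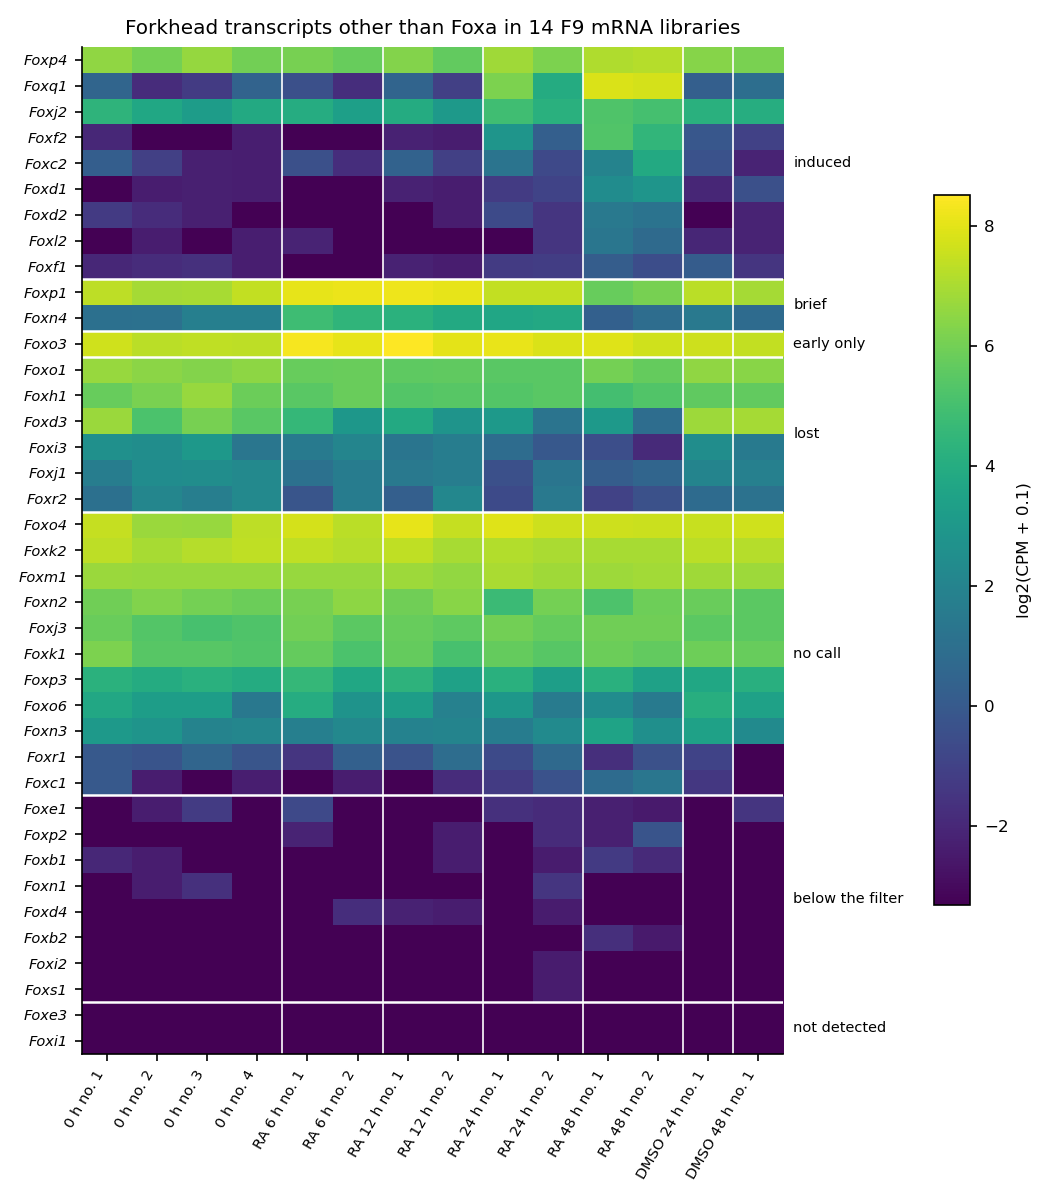
Level of the members (rows, by class; 1 tested member without a call is not drawn) in each of the 14 mRNA libraries (columns, by group and replicate number), as log2(CPM + 0.1) on the colour scale. The 8 members below the filter and the 2 not detected are dark throughout, Foxq1 and Foxf2 light up at 24 and 48 h of RA, and Foxd3 is bright at 0 h and in both DMSO columns.

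At 6 h of RA 3 members were called, 2 higher (Foxn4, Foxp1) and 1 lower (Foxo1). Of all tested genes 1.66% were called, 1.47% higher and 0.192% lower. With the set term 5 members were called (5.61% of all genes), Foxo3 and Foxd3 being added, and the block called the same 5 (5.21% of the 15308 genes it tested). At 12 h there were 4 calls, Foxn4, Foxo3 and Foxp1 higher and Foxo1 lower, against 2.75% of all genes (2.15% higher, 0.594% lower). Here 7 members were called with the set term (12.7% of all genes) or the block (9.67%). The 24 h libraries gave 6, with Foxf2, Foxn4 and Foxq1 higher and Foxd3, Foxi3 and Foxo1 lower, against 12.3% of all genes (8.08% higher, 4.26% lower). The set term gave 11 (29% of all genes) and the block 12 (28.3%). By 48 h 16 were called, 9 higher and 7 lower, where 29.5% of all genes were called, 17.5% higher and 12% lower. With the set term these were 20, against 48.8% of all genes, and with the block 19 of 28 tested members, against 46.2%. Single libraries weighed on these counts. Counts with a library left out, here and below, are given without the share of all genes called in the same fit. They are therefore not a result about the members. Without either 6 h library, or without replicate 2 or 3 of 0 h, 1 was called at 6 h. Leaving out replicate 1 or 2 of 12 h left 1 or 2 at 12 h, and leaving out replicate 1 or 2 of 48 h left 10 or 7 at 48 h.

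Between neighbouring times fewer members differed. From 6 to 12 h 0 members were called, and 0% of all genes or, with the set term, 0.0186%. The members with an unadjusted p under 0.05 there were 0 of 30, DESeq2 called 0 (0.0434% of all genes), and the block called 0 (0.098%). The step from 12 to 24 h also had 0 called members (0.0124% of all genes), while 5 had an unadjusted p under 0.05. DESeq2 called 3 there (1.97% of all genes), the set term 4 (6.26%) and the block 6 (11.8%). Foxf2 and Foxq1 were higher and Foxp1 lower by all 3 methods, Foxj2 was higher by the set term and the block, and Foxd3 and Foxn2 were lower by the block. From 24 to 48 h 3 were called, Foxd1 higher and Foxn4 and Foxp1 lower, against 0.706% of all genes (0.489% higher, 0.217% lower). The set term gave 8 (11% of all genes) and the block 10 (16.8%). Both added Foxc2 (adjusted p = 0.0353 and 0.0341), Foxd2 (0.0434 and 0.025), Foxf2 (0.000809 and 0.000422), Foxl2 (0.0327 and 0.0272) and Foxq1, and the block added Foxj2 (0.0467) and Foxp4 (0.0171). In the model without a set term or block, leaving out any 1 of the 4 libraries left 0 calls. Each of the 29 calls of a member against 0 h came from RA libraries that did not overlap those of 0 h and kept its sign within both library sets, and all 29 were also called with the set term. The choice by call from these same libraries largely fixes that agreement.

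The silent members span several subfamilies. Foxe3, a gene of the lens, and Foxi1, of the inner ear and kidney, had 0 counts in all 14 libraries, which allows up to 0.0227 CPM for each from counting error over the whole set (3 counts). Summed over the 14 libraries, Foxi2 and Foxs1 had 1 count each, Foxb2 had 3, Foxd4 had 5, Foxn1, the gene of thymic epithelium, had 6, Foxb1 had 9, Foxp2 had 14 and Foxe1, of the thyroid, had 16. Counts of Foxp2, a gene known from speech circuits, were 0 in the 4 libraries of 0 h and 10 in the 2 of 48 h RA. Of these 10, 9 were in replicate 2 (0.751 CPM) and 1 in replicate 1 (0.103 CPM), so they rest on that library. Foxb1 had 5 counts at 48 h and 2 at 0 h, a count ratio of 4.27 with a 95% interval of 0.7 to 44.9, so a difference was not detectable at this depth. Intervals and floors cover counting error only.

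Foxq1 and Foxf2, neighbours in the order Hus1b, Foxq1, Foxf2, Foxc1, Gmds of RefSeq's mouse annotation, went from near 0 to clear expression late in RA, while Foxc1 was not called. To place these genes, the 250 bases before a RefSeq start of Foxf2 (chr13:31625566-31625815, plus strand) and of Foxc1 (chr13:31806396-31806645, plus strand) are printed from RefSeq on GRCm38.p6, a later build than that of the counts, 5′ to 3′ with CpG dinucleotides in capitals.
Foxf2: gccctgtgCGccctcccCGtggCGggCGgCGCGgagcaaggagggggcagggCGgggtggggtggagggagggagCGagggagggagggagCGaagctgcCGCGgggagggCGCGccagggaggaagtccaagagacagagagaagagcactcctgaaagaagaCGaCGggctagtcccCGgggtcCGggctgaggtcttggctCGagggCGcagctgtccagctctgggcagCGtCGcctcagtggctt
Foxc1: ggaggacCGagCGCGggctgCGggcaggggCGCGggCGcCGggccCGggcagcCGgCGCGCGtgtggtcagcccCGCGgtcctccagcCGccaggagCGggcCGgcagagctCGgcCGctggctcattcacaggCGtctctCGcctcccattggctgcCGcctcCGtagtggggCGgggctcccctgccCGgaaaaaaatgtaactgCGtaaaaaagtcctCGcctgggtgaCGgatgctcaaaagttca
The Foxf2 window held 21 CpG and that of Foxc1 29. The median was 6 over all 32851 windows of the same length (upper quartile 16), and 15.5 over the windows of members. Neither AGGTCA, a half-site of nuclear receptors, nor TGTTTA, a forkhead core, was found in the Foxf2 or Foxc1 window on either strand. Over all windows AGGTCA occurred in 14% and TGTTTA in 12%, and each occurred in 4 of the 28 windows that matched 25 of the 40 members (14.3%).

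Foxq1, known from epithelium, hair and stomach, was at 1.35, 0.186, 0.316 and 1.26 CPM in the 4 libraries of 0 h. It stood at 0.642 and 0.19 CPM at 6 h, 1.32 and 0.374 CPM at 12 h, 71.6 and 15.3 CPM at 24 h, and 228 and 213 CPM at 48 h. In DMSO the libraries of 24 and 48 h held 1.11 and 1.81 CPM. Every library of 24 and 48 h RA lay above every other library. Foxq1 rose by 5.84 ± 0.71 (SE, log2 scale) at 24 h (edgeR, adjusted p = 0.000639) and by 8.19 ± 0.74 at 48 h (adjusted p = 5.49e-05), and against DMSO by 6.91 ± 1.28 at 48 h (adjusted p = 0.012), with 1 DMSO library. All 3 calls held without any single library that could be left out. The DMSO library of 48 h could not be, since the comparison needs it. Against DMSO at 24 h the change of 5.27 ± 1.25 was not called (adjusted p = 0.0657) but was with the set term (5.57, adjusted p = 0.00274) and by DESeq2 (adjusted p = 0.000123). The rise between 24 and 48 h, 2.34 ± 0.72, was called with the set term (2.71, adjusted p = 0.00381) and the block (2.73, adjusted p = 0.00271), and was not called without them (adjusted p = 0.175).

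Foxf2, a gene of gut and craniofacial mesenchyme, was at 0.15, 0, 0 and 0.0973 CPM at 0 h, 0 and 0 at 6 h, 0.12 and 0.0935 CPM at 12 h, 7.14 and 1.11 CPM at 24 h, and 38.6 and 21.9 CPM at 48 h. The DMSO libraries held 0.835 CPM at 24 h and 0.389 CPM at 48 h. Both RA libraries at 48 h thus lay above all others, and the weaker library of 24 h lay just above the DMSO library of that time. Foxf2 had 2 counts in all at 0 h, 80 at 24 h and 638 at 48 h, which are count ratios of 70.5 (95% interval 18.9 to 592) and 545 (150 to 4512). It was called at 24 h (edgeR, adjusted p = 0.00383) and at 48 h (adjusted p = 0.000172), each also without any single library. Against DMSO at 48 h the change was 6.23 ± 1.38 (adjusted p = 0.0282), which failed when either 48 h library was left out (adjusted p of 0.0635 and 0.082). Against DMSO at 24 h the change of 2.27 ± 1.16 was not called (adjusted p = 0.371), and the set term made it a call (adjusted p = 0.036).

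Foxc1, a gene of eye and skeletal mesenchyme, had 8 counts at 0 h and 45 at 48 h of RA. Its mean was 0.273 ± 0.422 CPM (SD, n = 4) at 0 h, with 0.902 CPM in replicate 1 and at most 0.0973 in the others, and 2.03 ± 0.551 CPM (n = 2) at 48 h. The mean was 0.0475 ± 0.0672 CPM at 6 h, 0.0935 ± 0.132 at 12 h and 0.502 ± 0.258 at 24 h, and DMSO gave 0.278 and 0 CPM. The change at 48 h, 3.02 ± 1.05, just missed the threshold (edgeR, adjusted p = 0.0521) and passed it with the set term (3.09 ± 0.87, adjusted p = 0.00909) and without the low-count filter (adjusted p = 0.0438). It did not pass with the block (2.21, adjusted p = 0.062) or by DESeq2 (adjusted p = 0.118). Without replicate 1 of 0 h the change was 4.71 (adjusted p = 0.00693), and without 1 of the other libraries the adjusted p was 0.104 to 0.182. Of the genes beside the trio, Gmds, an enzyme of fucose synthesis, rose by 0.98 ± 0.29 at 48 h (adjusted p = 0.0263, up to 0.113 with a library left out). Exoc2, a subunit of the exocyst, changed by 0.47 ± 0.37 and was not called (adjusted p = 0.387). Among 8 tested genes listed as neighbours of forkhead loci 1 rose (Gmds) and 1 fell (Emc8) at 48 h, with a median change of 0.31. Beside this and the later gene lists, 17.5% of all genes were called higher at 48 h and 12% lower.

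**Figure D2:**
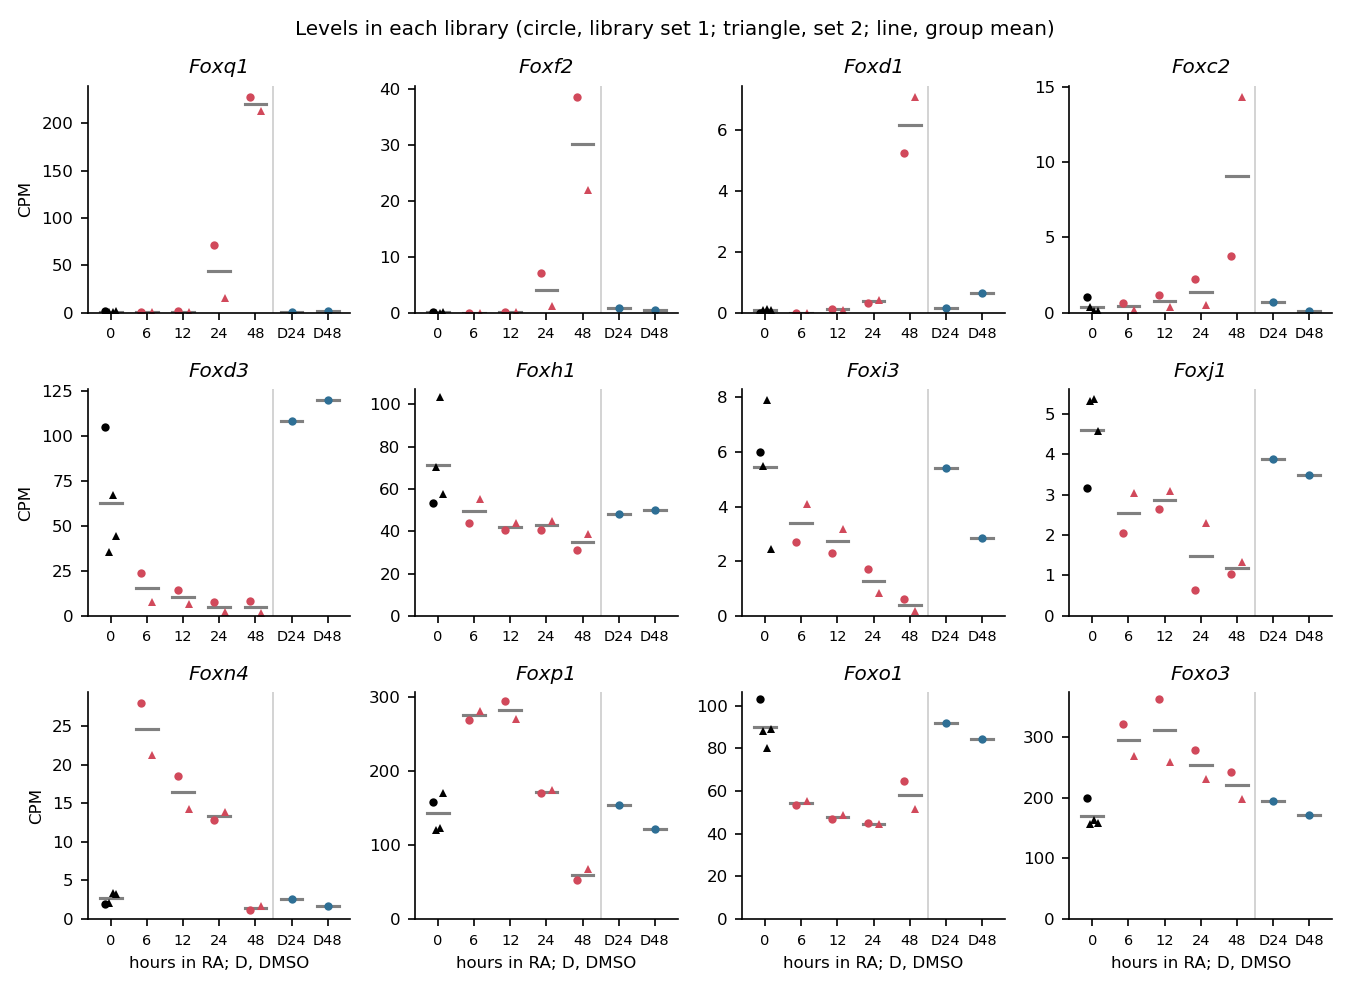
CPM of 12 members in each library by hours in RA, with DMSO at 24 and 48 h to the right of the grey line. Circles are library set 1, triangles set 2 and lines group means; each panel has its own axis from 0, and only the pattern within a panel is comparable. Foxq1 and Foxf2 rise from 24 h, Foxd1 and Foxc2 are highest at 48 h, Foxd3 is lower from 6 h, and Foxn4 peaks at 6 h.

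Foxd1 and Foxd2, genes of kidney and other mesenchyme, and Foxl2, the ovarian granulosa factor, became detectable above a few counts at 48 h. Each reached the filter's limit only in the 48 h RA libraries, so its tests at 48 h are descriptions. Foxd1 was at 0, 0.0932, 0.105 and 0.0973 CPM at 0 h, 0 and 0 at 6 h, 0.12 and 0.0935 at 12 h, 0.32 and 0.428 at 24 h, and 5.23 and 7.09 CPM at 48 h. DMSO libraries held 0.139 and 0.648 CPM. Its 3 counts at 0 h and 136 at 48 h are a ratio of 77.5 (95% interval 26 to 380; edgeR, adjusted p = 0.000134). It rose by 3.99 ± 0.66 from 24 to 48 h (adjusted p = 0.0358; lost without any 1 of the 4 libraries, up to 0.204) and by 3.23 ± 0.85 against DMSO (adjusted p = 0.0486; lost without either 48 h library, up to 0.155). The call against DMSO also ended by DESeq2 (adjusted p = 0.0592) and without the low-count filter (adjusted p = 0.0867). Foxd1 was the member called higher from 24 to 48 h.

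Foxd2 was at 0.301, 0.186, 0.105 and 0 CPM at 0 h, 0 and 0 at 6 h, 0 and 0.0935 at 12 h, 0.532 and 0.257 at 24 h, and 2.67 and 2.17 CPM at 48 h, with 0 and 0.13 in DMSO. It rose by 4.00 ± 0.83 at 48 h (edgeR, adjusted p = 0.00645), and its count ratio, 52 against 5, was 17.8 (95% interval 7.15 to 57). Foxd2os, the transcript on the opposite strand, rose beside it by 3.52 ± 0.80 (adjusted p = 0.00829), and because it is not given whether the counting used strand, the reads of the pair cannot be told apart. Foxe3, which lies next to Foxd2, stayed at 0 counts. Foxl2 was at 0, 0.0932, 0 and 0.0973 CPM at 0 h, 0.129 and 0 at 6 h, 0 and 0 at 12 h, 0 and 0.257 at 24 h, and 2.36 and 1.59 CPM at 48 h, with 0.139 and 0.13 in DMSO. Its counts of 42 against 2 are a ratio of 35.9 (95% interval 9.34 to 306; adjusted p = 0.00709).

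Foxf1 and Foxc2, genes of mesoderm that lie close together with Mthfsd between them, were also called at 48 h, Foxf1 at very low counts. Foxc2 was at 1.05, 0.373, 0.105 and 0.0973 CPM at 0 h, 0.642 and 0.19 at 6 h, 1.2 and 0.374 at 12 h, 2.24 and 0.513 at 24 h, and 3.8 and 14.4 CPM at 48 h. With DMSO it was at 0.696 and 0.13 CPM. The 48 h libraries lay above all others but differed widely from each other. Foxc2 rose by 4.55 ± 0.93 (edgeR, adjusted p = 0.00502). Leaving out replicate 2 of 48 h ended that call (adjusted p = 0.0637). Within set 1 the difference was 1.47 and within set 2 4.42, on the log2(CPM + 0.5) scale. Foxf1 was at 0.15, 0.186, 0.211 and 0.0973 CPM at 0 h, 0 and 0 at 6 h, 0.12 and 0.0935 at 12 h, 0.32 and 0.342 at 24 h, and 1.03 and 0.584 CPM at 48 h. DMSO held 0.975 CPM at 24 h and 0.259 at 48 h, so 1 DMSO library lay between the 48 h libraries. Foxf1 rose by 2.22 ± 0.65 at 48 h (adjusted p = 0.0285), resting on 17 counts against 6, and the call ended when replicate 2 of 48 h or 1 of replicates 2, 3 and 4 of 0 h was left out (adjusted p of 0.0512 to 0.0734). It also ended by DESeq2 (adjusted p = 0.136) and without the low-count filter (adjusted p = 0.0815), and the block did not test Foxf1. Replicate 1 of 48 h, with 10 counts, was the only library in which Foxf1 reached the filter's limit. Foxf1 was therefore tested only through that library. Mthfsd, between them, changed by 0.28 ± 0.18 and was not called (adjusted p = 0.274).

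Foxj2 and Foxp4, expressed before RA, rose moderately. Foxj2 was at 20.8, 13.1, 9.28 and 14.6 CPM at 0 h, 15.9 and 10.2 at 6 h, 15.7 and 8.04 at 12 h, 29.6 and 17.9 at 24 h, and 37.3 and 32.5 CPM at 48 h, with 18.4 and 16.3 in DMSO. Its rise of 1.28 ± 0.36 at 48 h (edgeR, adjusted p = 0.0218) was lost without replicate 2 or 3 of 0 h or either 48 h library (adjusted p of 0.0507 to 0.132). Foxp4 was at 92.5, 65.7, 97.8 and 63.2 CPM at 0 h, 66.9 and 54 at 6 h, 78.4 and 50.6 at 12 h, 113 and 70.9 at 24 h, and 136 and 145 CPM at 48 h. It was at 83.1 and 69.3 CPM in DMSO. The rise of 0.82 ± 0.26 (adjusted p = 0.0355) was lost without replicate 2 or 4 of 0 h or either 48 h library (adjusted p of 0.0784 to 0.133). Both were called against DMSO at 48 h with the set term only, at adjusted p = 0.00584 for Foxj2 and 0.00878 for Foxp4.

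Among the members that fell, Foxd3, a factor of pluripotent cells and neural crest, was already far below 0 h at 6 h. The 250 bases before its RefSeq start (GRCm38.p6, chr4:99656049-99656298, plus strand, CpG in capitals) are shown for comparison with the windows of Foxf2 and Foxc1 above.
Foxd3: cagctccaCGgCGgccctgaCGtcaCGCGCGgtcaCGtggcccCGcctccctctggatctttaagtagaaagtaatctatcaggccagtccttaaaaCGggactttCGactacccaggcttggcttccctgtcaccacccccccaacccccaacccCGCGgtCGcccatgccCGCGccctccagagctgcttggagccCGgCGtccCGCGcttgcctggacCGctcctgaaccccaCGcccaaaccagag
They held 21 CpG, as many as Foxf2, and neither AGGTCA nor TGTTTA. Foxd3 was at 105, 35.3, 67.2 and 44.7 CPM at 0 h, 23.8 and 7.51 at 6 h, 14.5 and 6.83 at 12 h, 7.99 and 2.22 at 24 h, and 8 and 1.75 CPM at 48 h. In DMSO it was at 108 CPM at 24 h and 120 CPM at 48 h. All 8 RA libraries lay below all 4 of 0 h and both of DMSO, and in every group the set 1 library was the higher. In bulk RNA, fewer cells that express a gene and less RNA per cell cannot be told apart.

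The log2 change of Foxd3 was -2.02 ± 0.76 at 6 h and -2.57 ± 0.79 at 12 h, neither called (edgeR, adjusted p = 0.362 and 0.136), -3.64 ± 0.85 at 24 h (adjusted p = 0.0194) and -3.71 ± 0.85 at 48 h (adjusted p = 0.00854). The 24 h call was lost without either 24 h library (adjusted p of 0.0578 and 0.0931) and the 48 h call without replicate 2 of 48 h (adjusted p = 0.0724). Without the low-count filter the 24 h call ended (adjusted p = 0.0711), and DESeq2 added 12 h (adjusted p = 0.0051). The block called all 4 times. With the set term the SE shrank and all 4 were called, from -2.50 ± 0.29 at 6 h (adjusted p = 0.000114) to -4.22 at 48 h (adjusted p = 4.68e-07). Against DMSO, Foxd3 fell by 4.64 ± 0.99 on the log2 scale at 48 h (adjusted p = 0.0214, but 0.105 without replicate 2 of 48 h and 0.0695 without the low-count filter), and at 24 h the change was -4.42 ± 0.98 (adjusted p = 0.0519; called with the set term at 4.28e-05 and by DESeq2 at 0.000358). Between successive RA times Foxd3 was not called by the model without a set term or block. From 12 to 24 h the block called it lower (-1.19, adjusted p = 0.0142) and the set term did not (adjusted p = 0.0632), and its change from 24 to 48 h was -0.07 ± 0.87.

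Foxh1, the DNA-binding partner of Smad proteins downstream of Nodal, was at 53.4, 70.3, 104 and 57.6 CPM at 0 h, 44.1 and 55.2 at 6 h, 40.5 and 43.8 at 12 h, 40.5 and 45.1 at 24 h, and 31.3 and 38.7 CPM at 48 h. DMSO gave 48.3 and 50 CPM, below all 4 libraries of 0 h. Foxh1 fell by 1.02 ± 0.27 on the log2 scale at 48 h (edgeR, adjusted p = 0.0152), a call lost without either 48 h library (adjusted p of 0.0641 and 0.104), and it was called lower at 12 and 24 h with the set term (adjusted p = 0.0459 and 0.028) and with the block (adjusted p = 0.0252 and 0.0141). DESeq2 called it at 24 h too (adjusted p = 0.044). Against DMSO, Foxh1 changed by -0.18 ± 0.36 at 24 h and by -0.51 ± 0.35 at 48 h. Neither change was called by edgeR, with or without the set term, or by DESeq2. DMSO itself was at -0.54 ± 0.26 against 0 h, also not called. Of 16 tested genes of its pathway 5 rose and 2 fell at 48 h, with a median change of 0.49 beside 0.01 over all genes. Lefty1, a Nodal inhibitor, rose by 3.28 ± 0.49, while Tdgf1, the Nodal co-receptor, fell by 3.95 ± 0.41. The summed level of the list was 995 to 1183 CPM at 0 h and 1120 to 1191 CPM at 48 h.

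Foxi3, a factor of placodes and ectodermal organs, was at 6.01, 5.5, 7.91 and 2.43 CPM at 0 h, 2.7 and 4.09 at 6 h, 2.29 and 3.18 at 12 h, 1.7 and 0.855 at 24 h, and 0.616 and 0.167 CPM at 48 h, with 5.43 and 2.85 in DMSO. At 24 h its change was -2.09 ± 0.61 (edgeR, adjusted p = 0.0487; lost without replicate 1, 2 or 3 of 0 h or either 24 h library, up to 0.181). At 48 h it was -3.80 ± 0.70 (adjusted p = 0.00284), which held without any single library. Against DMSO at 48 h the change was -2.87 ± 0.83 (adjusted p = 0.06; 0.0275 with the set term and 0.0285 by DESeq2).

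Foxj1, the regulator of motile cilia, was at 3.16, 5.31, 5.38 and 4.57 CPM at 0 h, 2.06 and 3.04 at 6 h, 2.65 and 3.09 at 12 h, 0.639 and 2.31 at 24 h, and 1.03 and 1.34 CPM at 48 h, with 3.9 and 3.5 in DMSO. It fell by 1.95 ± 0.52 on the log2 scale at 48 h (edgeR, adjusted p = 0.0178; lost without either 48 h library, at 0.0821 and 0.111). At 24 h its change of -1.62 was not called (adjusted p = 0.0636), but it was with the set term (adjusted p = 0.00948), the block (0.026) and DESeq2 (0.0189). Of 14 tested genes of motile cilia 0 rose and 4 fell at 48 h, with a median change of -0.81, and the remaining tested genes were not called. Of all genes 29.5% were called at 48 h, 17.5% higher and 12% lower. Myb, which acts in multiciliated and blood progenitors, fell by 4.45 ± 0.80, and Rfx2, a cilium gene factor, changed by -1.41 ± 0.26 on the log2 scale. The list's sum moved from 170 to 209 CPM at 0 h to 101 to 105 CPM at 48 h.

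Foxr2, a forkhead gene on the X chromosome, differed by library set: it was at 1.95 CPM in set 1 and 4.19, 3.27 and 4.57 CPM in set 2 at 0 h. It was at 0.771 and 3.04 CPM at 6 h, 1.08 and 4.3 at 12 h, 0.532 and 2.65 at 24 h, and 0.41 and 0.668 CPM at 48 h, with 1.67 and 2.07 in DMSO. The set 1 library was the lower at every time. At 48 h Foxr2 changed by -2.66 ± 0.89 (edgeR, adjusted p = 0.0444; lost without replicate 2, 3 or 4 of 0 h or either 48 h library, up to 0.204), and by -2.34 with the set term (adjusted p = 0.00162). Foxr1, its paralog, was at 0.949 ± 0.289 CPM (SD, n = 4) at 0 h, 0.699 ± 0.625 at 6 h, 1.25 ± 0.745 at 12 h, 1.04 ± 0.712 at 24 h and 0.436 ± 0.327 at 48 h (n = 2 each), with 0.418 and 0 CPM in DMSO, and was not called.

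Foxn4, a factor of retinal and spinal interneuron progenitors, rose within 6 h and was back near its 0 h level by 48 h. The 250 bases before a RefSeq start of Foxn4 (GRCm38.p6, chr5:114273762-114274011, minus strand, CpG in capitals) are printed as those of the member with the clearest brief rise.
Foxn4: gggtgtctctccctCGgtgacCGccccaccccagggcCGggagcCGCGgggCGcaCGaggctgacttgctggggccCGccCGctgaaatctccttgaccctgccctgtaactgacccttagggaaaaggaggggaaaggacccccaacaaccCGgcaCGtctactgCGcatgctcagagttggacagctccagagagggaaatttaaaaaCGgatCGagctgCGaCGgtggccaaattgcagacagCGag
They held 17 CpG and neither AGGTCA nor TGTTTA. Foxn4 was at 1.95, 2.05, 3.38 and 3.31 CPM at 0 h, 28 and 21.2 at 6 h, 18.5 and 14.3 at 12 h, 12.9 and 13.9 at 24 h, and 1.13 and 1.75 CPM at 48 h. Solvent alone gave 2.64 and 1.69 CPM. The 6 libraries of 6, 12 and 24 h all lay above every other library. Its log2 change was 3.19 ± 0.30 at 6 h (edgeR, adjusted p = 0.000468), 2.61 ± 0.30 at 12 h (adjusted p = 0.00092) and 2.31 ± 0.30 at 24 h (adjusted p = 0.00092), each held without any single library. At 48 h it was -0.88 ± 0.35, which was not called (adjusted p = 0.0804). From 24 to 48 h Foxn4 fell by 3.19 ± 0.39 on the log2 scale (adjusted p = 0.0167), a call lost without any 1 of those 4 libraries (up to 0.101) and kept with the set term (adjusted p = 0.000228). It rose against DMSO at 24 h by 2.33 ± 0.50 (adjusted p = 0.0467; lost without either 24 h library, up to 0.109, and 0.0525 without the low-count filter).

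Foxp1, a repressor of the FoxP subfamily, was above its 0 h level at 6 and 12 h and below it at 48 h. It was at 158, 121, 123 and 171 CPM at 0 h, 269 and 281 at 6 h, 294 and 270 at 12 h, 170 and 174 at 24 h, and 53.2 and 67.1 CPM at 48 h. The DMSO libraries were at 154 and 122 CPM. Libraries of 6 and 12 h lay above and those of 48 h below all of 0 h, while those of 24 h overlapped them. Foxp1 rose by 0.94 ± 0.17 at 6 h (edgeR, adjusted p = 0.0198; lost without replicate 2 or 3 of 0 h or either 6 h library, up to 0.156) and by 0.98 ± 0.17 at 12 h (adjusted p = 0.0116; lost without either 12 h library, up to 0.132). At 48 h the change was -1.25 ± 0.19 (adjusted p = 0.000943), which held without any single library. From 24 to 48 h it was -1.51 ± 0.21 (adjusted p = 0.0197; lost without any 1 of the 4 libraries, up to 0.101). Against DMSO at 48 h it was -1.02 ± 0.24 (adjusted p = 0.0321; lost without either 48 h library, up to 0.109).

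Within the FoxP subfamily the members thus had different courses: Foxp4 was called higher at 48 h, where Foxp1 was called lower, Foxp2 lay below the filter, and Foxp3, the regulator of regulatory T cells, was not called. Foxp3 was at 16.9 ± 1.98 CPM (SD, n = 4) at 0 h, 18.4 ± 7.6 at 6 h, 15.4 ± 6.68 at 12 h, 14 ± 5.79 at 24 h and 14.4 ± 4.89 at 48 h (n = 2 each), with 13.2 and 17.4 CPM in DMSO. Among 12 tested corepressors listed with forkhead repressors such as Foxp1, 1 rose and 3 fell at 48 h, with a median change of 0.05. The changes were -1.84 ± 0.23 for Ctbp2, -1.77 ± 0.24 for Tle4 and -0.58 ± 0.17 for Hdac2 (edgeR, adjusted p = 0.000311, 0.000485 and 0.028, the last up to 0.121 with a library left out).

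**Figure D3:**
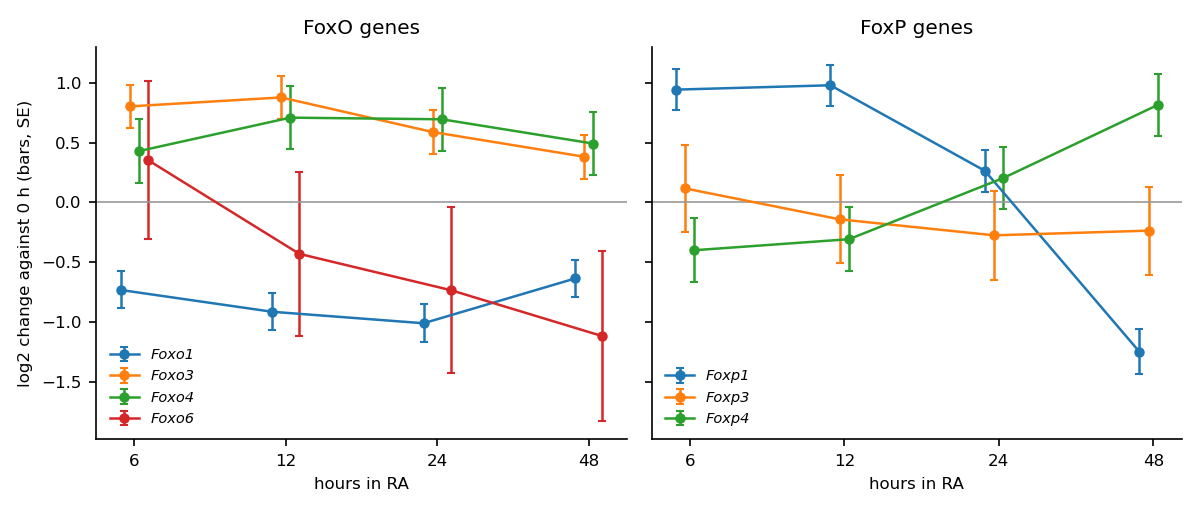
Log2 change against 0 h (edgeR, bars are SE) of the tested FoxO genes (left) and FoxP genes (right) at 6, 12, 24 and 48 h of RA. Foxo1 is below 0 at each time while Foxo3 and Foxo4 are above it, and Foxp1 goes from 0.94 at 6 h to -1.25 at 48 h while Foxp4 reaches 0.82.

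In the FoxO subfamily, effectors of insulin and growth factor signalling, Foxo1 fell while Foxo3 rose. Foxo1 was at 103, 88.2, 80.4 and 89.1 CPM at 0 h, 53.5 and 55.2 at 6 h, 46.7 and 49 at 12 h, 44.8 and 44.7 at 24 h, and 64.7 and 51.4 CPM at 48 h. Levels in DMSO were 91.9 and 84.2 CPM. All 8 RA libraries lay below all of 0 h and DMSO. Foxo1 was called at each time, with changes of -0.73 ± 0.15 at 6 h, -0.91 ± 0.16 at 12 h, -1.01 ± 0.16 at 24 h and -0.64 ± 0.15 at 48 h (edgeR, adjusted p = 0.0456, 0.0102, 0.00276 and 0.0111). The call at 24 h held without any single library. That at 6 h was lost without any 1 of its 6 libraries (up to 0.428) and without the low-count filter (adjusted p = 0.08), that at 12 h without either 12 h library (up to 0.149) and that at 48 h without replicate 2 of 48 h (adjusted p = 0.166). Against DMSO, Foxo1 fell by 1.04 ± 0.21 at 24 h (adjusted p = 0.0357; lost without either 24 h library, up to 0.115, and 0.0545 without the low-count filter) and its change at 48 h was -0.54 ± 0.21 (adjusted p = 0.142).

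Foxo3 was at 199, 156, 163 and 159 CPM at 0 h, 321 and 269 at 6 h, 363 and 259 at 12 h, 278 and 231 at 24 h, and 243 and 198 CPM at 48 h. For DMSO the values were 195 and 172 CPM. Libraries of 6, 12 and 24 h lay above all of 0 h, and those of 48 h overlapped them. The change was 0.80 ± 0.18 at 6 h (edgeR, adjusted p = 0.0593), 0.88 ± 0.18 at 12 h (adjusted p = 0.0276), 0.59 ± 0.18 at 24 h (adjusted p = 0.0608) and 0.38 ± 0.18 at 48 h (adjusted p = 0.147). The 12 h call ended when replicate 1 of 12 h or 1 of replicates 2, 3 and 4 of 0 h was left out (adjusted p of 0.0797 to 0.36). With the set term all 4 times were called, at adjusted p = 0.000542, 0.000188, 0.0024 and 0.0275, and the block called all 4 as well. DESeq2 added 6 and 24 h (adjusted p = 0.00773 and 0.0359). Foxo4 was at 136 ± 38.1 CPM (SD, n = 4) at 0 h, 183 ± 42.3 at 6 h, 223 ± 64.8 at 12 h, 221 ± 35.7 at 24 h and 192 ± 1.75 at 48 h (n = 2 each), with 182 and 198 CPM in DMSO. It was called higher at 12 and 24 h with the set term (adjusted p = 0.0366 and 0.0174), and at 12, 24 and 48 h with the block (adjusted p = 0.0234, 0.00985 and 0.0233). Foxo6 was at 8.8 ± 4.62 CPM at 0 h, 11.2 ± 6.63 at 6 h, 6.53 ± 4.21 at 12 h, 5.29 ± 3.37 at 24 h and 4.04 ± 1.82 at 48 h, with 16.8 and 10.8 in DMSO, and was called lower at 48 h with the set term (-1.43 ± 0.43, adjusted p = 0.0137). The block called it lower at 24 and 48 h (adjusted p = 0.00736 and 0.00105).

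Of 20 tested regulators of FoxO proteins 6 rose and 5 fell at 48 h, with a median change of -0.14. Pik3r1, a regulatory subunit of PI3 kinase, rose by 3.42 ± 0.26, and Sgk1, a kinase that phosphorylates FoxO, fell by 1.54 ± 0.29 on the log2 scale. Among 22 tested genes listed as FoxO targets 3 rose and 0 fell at 6 h and 10 rose and 2 fell at 48 h, with medians of 0.03 and 0.59. Of all genes 1.47% were called higher and 0.192% lower at 6 h, and 17.5% and 12% at 48 h. At 48 h Ccng2, a cyclin of arrested cells, rose by 1.82 ± 0.28, Irs2, an adaptor of insulin signalling, by 1.47 ± 0.44 (edgeR, adjusted p = 0.0288, up to 0.265 with a library left out), and Klf2, a zinc finger factor, fell by 1.69 ± 0.27 on the log2 scale. Against DMSO at 48 h, with 1 DMSO library, the change of Ccng2 was 0.56 ± 0.42 and was not called. Its level was 18.9 CPM in DMSO and 27.9 CPM in RA. In that comparison 0 of the 22 target genes were called higher and 2 lower, with a median of 0.54. Of all genes 4.8% were called higher and 3.16% lower there. With the set term 4 were higher and 2 lower, against 24.1% of all genes called. Insr and Irs2 stand on both lists, Skp2 on that of FoxO regulators and of Foxm1 targets, and other factors act on many of these genes.

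Foxm1, which drives genes of mitosis, was at 104 ± 1.49 CPM (SD, n = 4) at 0 h, 103 ± 1.08 at 6 h, 102 ± 8.17 at 12 h, 120 ± 8.81 at 24 h and 113 ± 4.45 at 48 h (n = 2 each), with 112 and 108 CPM in DMSO. It was called at no time, and its change at 48 h was 0.11 ± 0.12 (edgeR, adjusted p = 0.525). Of 20 genes listed as its targets 1 rose and 8 fell at 48 h, with a median of -0.50. With the set term 1 rose and 14 fell, where 48.8% of all genes were called. Skp2, a ubiquitin ligase subunit, changed by -0.89 ± 0.22 and Cdc20, an activator of the anaphase-promoting complex, by -0.83 ± 0.26 (adjusted p = 0.0115 and 0.0353, up to 0.0881 and 0.309 with a library left out). Cdc25b, a phosphatase of mitotic entry, rose by 0.77 ± 0.17 (adjusted p = 0.00645). Against DMSO at 48 h, with 1 DMSO library, 0 of the 20 rose and 0 fell, with a median of -0.39. With the set term 0 rose and 7 fell in that comparison. Of all genes 7.96% were called there, and 24.1% with the set term. The list summed to 3290 to 3763 CPM at 0 h and 2414 to 2669 CPM at 48 h of RA.

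The other tested members were called in none of the comparisons by the model without a set term or block. Foxk1 and Foxk2, broadly expressed regulators of metabolism, were at 48.9 ± 15 and 150 ± 18 CPM (SD, n = 4) at 0 h. At 6, 12, 24 and 48 h Foxk1 was at 44.1 ± 11.4, 42.7 ± 12.8, 47.1 ± 6.34 and 54 ± 4.92 CPM (n = 2 each), with 60.3 and 53.5 CPM in DMSO. At the same times Foxk2 was at 156 ± 17.4, 145 ± 30.4, 134 ± 9.32 and 123 ± 0.413 CPM, with 156 and 144 CPM in DMSO. Foxj3 was at 41.8 ± 9.67 CPM at 0 h and 54.2 ± 11.5, 50.6 ± 4.08, 58.5 ± 7.7 and 61.1 ± 0.551 CPM at the RA times, with 46.1 and 46.5 in DMSO, and was called at 24 and 48 h only with that term (adjusted p = 0.0479 and 0.0122).

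Foxn2 and Foxn3, relatives of Foxn4 known as checkpoint and repressor genes, did not share its early rise. Foxn2 was at 64.8 ± 7.99 CPM (SD, n = 4) at 0 h and 79.2 ± 16.2, 73.4 ± 15.8, 45.6 ± 26.8 and 48 ± 15.3 CPM (n = 2 each) at 6, 12, 24 and 48 h, with 55 and 45.7 in DMSO. The block called Foxn2 lower at 24 and 48 h and from 12 to 24 h (edgeR, adjusted p = 0.0272, 0.0474 and 0.034), and neither the set term nor DESeq2 did. Foxn3 was at 5.71 ± 2.04 CPM at 0 h and 3.91 ± 0.798, 3.83 ± 0.138, 3.93 ± 1.34 and 8.66 ± 3.86 CPM at the RA times, with 10.7 and 4.92 in DMSO.

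**Figure D4:**
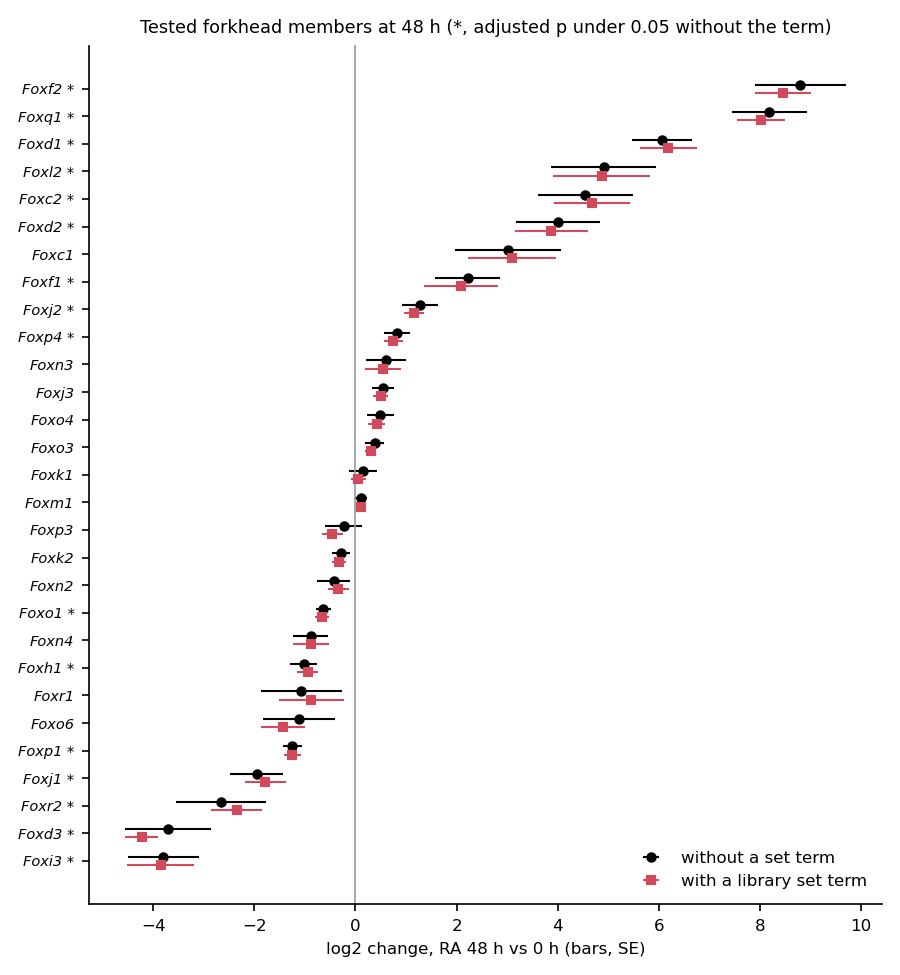
Log2 change from 0 to 48 h of RA (edgeR, bars are SE) of the tested members (1 without a call is not drawn), without a term for the library set (black circles, asterisk where adjusted p is under 0.05) and with it (red squares). The order runs from Foxf2 and Foxq1 at the top to Foxd3 and Foxi3 at the bottom; Foxf2, Foxd1 and Foxl2 had 2, 3 and 2 counts at 0 h, so their fitted changes depend on the prior count.

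The solvent alone gave no call. DMSO at 24 and 48 h together against 0 h called 0 of the 30 tested members and 0% of all genes by edgeR, 0 members by DESeq2, and left 2 members at an unadjusted p under 0.05 (Foxf2 and Foxr1, both at adjusted p = 0.587). RA against DMSO called 2 members at 24 h, Foxn4 higher and Foxo1 lower, against 1.89% of all genes (1.29% higher, 0.594% lower). At 48 h it called 5, Foxd1, Foxf2 and Foxq1 higher and Foxd3 and Foxp1 lower, against 7.96% of all genes (4.8% higher, 3.16% lower). With the set term these were 7 (10.4% of all genes) and 13 (24.1%). It added Foxd3, Foxf2, Foxq1, Foxj1 (adjusted p = 0.0469) and Foxo3 (0.039) at 24 h. At 48 h it added Foxi3, Foxj2, Foxp4, Foxc2 (adjusted p = 0.0124), Foxd2 (0.0294), Foxo3 (0.0272), Foxj1 (0.0201) and Foxr2 (0.00806), of which DESeq2 also called Foxi3 and Foxc2 (0.0212). Without replicate 1 or 2 of 24 h RA 0 or 1 were called, and without replicate 1 or 2 of 48 h RA 2 or 1. These comparisons rest on 1 DMSO library each, taken to vary like the other groups, and both DMSO libraries lie in set 1. They share their RA libraries with the comparisons against 0 h.

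The Foxa subfamily, left out by the rule, had 2 of 3 members called higher at 48 h, Foxa1 by 6.71 ± 0.27 and Foxa2 by 6.76 ± 0.79, while Foxa3 was at -0.20 ± 0.66 (edgeR, adjusted p = 0.85). In the hedgehog pathway, which acts on Foxf1, Foxf2 and Foxc2 in other tissues, 7 of 15 tested genes rose and 4 fell at 48 h, with a median of 0.86. The co-receptor genes Gas1, Cdon and Boc rose by 5.05 ± 0.64, 2.77 ± 0.16 and 2.50 ± 0.42, and Gli1, a target and effector of the pathway named after its value was seen, fell by 2.03 ± 0.45 on the log2 scale (adjusted p = 0.00712, up to 0.0664 with a library left out).

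Markers of cell types moved with these members, and their part in the results was not tested. At 48 h 0 of 10 embryonal carcinoma genes rose and 9 fell (median change -1.57), and their summed level was 5100 to 6557 CPM at 0 h and 1391 to 2236 CPM at 48 h. All 6 tested primitive endoderm genes rose (median 6.01, 57.5 to 114 CPM at 0 h, 1193 to 1376 CPM at 48 h), as did 7 of 8 parietal endoderm genes (median 4.72, 610 to 1011 and 5493 to 8282 CPM). Of 8 listed visceral endoderm genes only 6 passed the filter, and 5 of these rose (median 4.56). Over the 8 the sums were 1.86 to 7.69 and 120 to 126 CPM, and 2 of them had 0 counts at 0 h. Of other cell types, fibroblast genes had 3 of 4 tested (7 listed) higher and 1 lower (median 2.62, 11.8 to 30.2 CPM at 0 h, 6.26 to 12.3 CPM at 48 h). Mesoderm genes had 2 of 5 tested (6 listed) higher and 0 lower (median -0.62, 2.34 to 3.27 and 12.5 to 21.9 CPM). Neural crest genes had 3 of 6 higher and 0 lower (median 2.24, 20.7 to 52.3 and 49.7 to 58.5 CPM), and neural genes 0 of 5 tested (7 listed) higher and 1 lower (median -0.70, 195 to 298 and 127 to 157 CPM). The fibroblast gene Col1a2 had 0 counts at 0 h and Msgn1, of presomitic mesoderm, had 0 at 0 and 48 h.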

How the data were processed

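RNA libraries were made from F9 cells with TruSeq kits, per the labels' protocols. The tools named are HTSeq, DESeq and TopHat2 2.0.7, with build mm9, per the submitters' processing notes. Whether counting used strand is not given in the sources used here. The values the authors deposited are raw counts of reads for each Ensembl gene, not normalized, with a table for each library. Each table also held 5 entries for reads given to no gene, 72.52 to 76.78% of its counts, which were left out. Symbols were matched by Ensembl identifier.

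The 14 mRNA libraries entered 1 robust quasi-likelihood model of edgeR 4.0.16 (R 4.3.3), with TMM normalization and edgeR's default filter by group (about 10 counts, or 1.05 CPM). It kept 16155 genes. Tests are two-sided with Benjamini-Hochberg adjustment over those genes, and the SE is the size of the log2 change over the root of its F statistic. DESeq2 1.42.0, RLE normalization, no filter, a set term, a replicate block and each library left out were tried. The fit was tested on simulated data. Deviations of same-numbered replicates correlated over 10 pairs of groups (r from 0.716 to 0.855), so the block was used, but number 1 lies in set 1 and number 2 in set 2 throughout, and pairing and set cannot be told apart. Replicates differed beyond counting noise (chi-squared over degrees of freedom from 10.8 to 66.92), so they were counted as separate libraries.

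The members, gene lists and classes were chosen with earlier results of these data known. Members are named except 1, and values of 3 genes that the rule names are not reported here. Those called in any of 10 comparisons, and Foxf2, Foxq1, Foxd3 and Foxn4, are given in each library, others by group mean. Of each list, up to 3 called members with the largest change and a mean of at least 5 CPM are named, except that none is named from the cell type markers beyond those at 0; Gli1, Exoc2 and Mthfsd were added. Promoters and gene order come from RefSeq on GRCm38.p6. Plots used matplotlib 3.10.9. The receptor binding regions were not used here, since no gene positions of build mm9 were at hand.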

Additional observations from a re-analysis of the deposited data

Results flagged for a closer look

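Of 30 tested members checked for a library far from the others of its group at 0 h, 4 were found. Chance gives about 1 in 20 where the libraries of a group are alike, but those of 0 h come from both sets. The 4 are therefore not compared with that rate. All 4 were in replicate 1, the 0 h library of set 1. Foxk1 was at 71.3 CPM there and at 39.2 to 42.7 CPM in the other 3 libraries, and Foxo3 was at 199 CPM against 156 to 163 CPM. Foxc1 was at 0.902 CPM against 0 to 0.0973 CPM, and Foxd1 at 0 CPM against 0.0932 to 0.105 CPM, the latter a difference of single counts. The part of the library set in these values was not tested.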

How the results depend on the processing

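The counts of called members kept their direction but varied with the model. With the library set term the count was 5 at 6 h, 7 at 12 h, 11 at 24 h, 4 from 12 to 24 h, 8 from 24 to 48 h, and 7 and 13 against DMSO at 24 and 48 h, and the class of members called higher early only held 0. The replicate block, fitted without DMSO and without replicates 3 and 4 of 0 h, gave 5 at 6 h, 7 at 12 h, 12 at 24 h, 6 from 12 to 24 h and 10 from 24 to 48 h; it had 28 members tested and turned 28 of 196 member values into calls and ended 0. DESeq2 gained 13 and ended 2 of 300 member calls, the set term gained 36, and no filter gained 1 and ended 7. DESeq2 called 3 from 12 to 24 h (1.97% of all genes) and 4 against DMSO at 24 h. Without the filter on low counts, 0 members were called against DMSO at 24 h and 3 at 48 h, 0 members lay below the filter and 20 had no call: the 8 newly tested members had none, Foxc1 moved from no call to the induced class and Foxf1 the other way. Leaving out 1 library at a time gave 1 to 3 calls at 6 h, 1 to 4 at 12 h, 4 to 7 at 24 h, 7 to 18 at 48 h, 0 to 2 from 12 to 24 h, 0 from 24 to 48 h, 0 to 1 against DMSO at 24 h and 1 to 2 at 48 h. RLE normalization changed the side of the threshold for 0 of 300 member values. A group left with 1 library was taken to vary like the others. The shares of all genes called with a library left out, without the filter or by DESeq2 against DMSO are not given. Those counts therefore do not single out the members. Of 29 calls against 0 h, 16 were lost without at least 1 library. The causes of these differences, apart from fewer libraries or more genes tested, were not tested. At 7.079 to 10.95 M (mega) gene counts, 1 count is worth about 0.1 CPM, so changes among members below 1.05 CPM rest on a few reads.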
